A study of Mus musculus with 6 samples.

Results

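The genes described here are 49 interferon response genes, that is, genes switched on by interferon and the factors that regulate them, chosen by symbol and matched to Ensembl identifiers in a count matrix of 21666 mouse genes. All 49 were in the matrix and all 49 passed the filter on low counts, which left 15518 genes to test. The counts come from RNA-seq of cultured satellite cells, the stem cells of skeletal muscle, which had spent 2 days in differentiation. Of the 6 libraries, 3 were from wild-type mice (WT) and 3 from mice lacking lncMREF (KO), a long noncoding RNA that the series title ties to muscle formation and to Smarca5, which remodels chromatin, and p300, which acetylates histones. The labels give no strain, age, allele or sorting marker, no treatment with interferon or virus, and no word on whether the 3 replicates came from separate animals, so the p-values reflect spread among libraries alone, and that spread may be technical. The matrix was not searched for lncMREF, since no identifier in the sources used here ties that name to a gene, so loss of the target was not checked.

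Interferons are secreted signals of infection and inflammation. Type I interferon binds the receptor made of Ifnar1 and Ifnar2, whose kinases Jak1 and Tyk2 phosphorylate STAT factors, Stat2 among them; these join Irf9, and the complex binds a promoter element called the ISRE. Interferon gamma binds Ifngr1 and Ifngr2 and acts through STAT factors at another element, the GAS. Many cells keep a low tonic level of this programme with no infection. Its products include RNA-binding effectors, large GTPases, sensors of foreign RNA and the STAT and IRF factors themselves, so that part of the programme feeds back on its own control.

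Library totals ran from 17919826 to 28430678 counts. The cells expressed muscle markers in both genotypes, at a summed level of 17967 to 18641 CPM (counts scaled to a common library total, with TMM factors) over 8 differentiation genes in WT and 4015 to 4339.7 in KO cells. Of all 15518 genes tested, 66.7% were called at an adjusted p under 0.05 by edgeR's quasi-likelihood test, 33.0% lower and 33.7% higher in KO, so a call alone sets no gene apart here. With library size as the only scaling, the median log2 fold change of all genes moved from 0.02 to 0.19 and the share of calls that were higher from 50.5% to 66.1%. Transcripts of the sex chromosomes also differed: Xist stood at 154 ± 1.54 CPM in WT and 457 ± 35.0 in KO (SD, n = 3 each), and the Y-linked Ddx3y at 61.2 ± 4.59 and 35.7 ± 1.79. Of 4 Y-linked genes, Ddx3y, Eif2s3y and Uty were lower in KO, and Kdm5d was not called (14.8 ± 0.110 and 16.5 ± 0.563 CPM); their part in the results below was not tested.

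Many promoters of these genes carry the letters that interferon-activated factors bind, and 9 are shown: 7 chosen for a match to the ISRE core, 1 of a gene that fell with no match (Ifi47) and 1 of a gene that rose (Irf1). RefSeq promoter windows of 300 bases (250 before to 50 after the transcript start, build GRCm38.p6, the same assembly as mm10) were matched for 37 of the 49 genes. The ISRE core was searched on both strands as GAAA, any 2 bases and GAAA. The GAS was searched as TTC, any 3 bases and GAA, which reads the same on both strands; matches may overlap. The ISRE core occurred in 21 of the 37 genes (56.8%) and in 3.99% of the 27025 genes in the promoter table. The GAS letters occurred in 13 (35.1%) against 9.55%, and 8 (21.6%) held both, against 0.614%. By class, the ISRE core was found in 11 of 21 effectors, 7 of 8 GTPases, 2 of 3 sensors and 1 of 5 STAT and IRF factors. By response, it was found in 20 of the 31 genes that were lower in KO, in 1 of the 5 that were not called, and not in the window of the 1 that was higher. A match describes letters and is not a bound site.

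The 200 bases before the start are printed 5′ to 3′ for 9 genes whose windows hold no annotated exon, with every match to either motif in capitals. They are Isg15 (chr4:156200819-156201018, minus strand), Ifit3 (chr19:34583329-34583528, plus strand), its near copy Ifit3b (chr19:34607757-34607956, plus strand), Gbp7 (chr3:142530136-142530335, plus strand), Bst2 (chr8:71537473-71537672, minus strand), Igtp (chr11:58199356-58199555, plus strand), Irgm2 (chr11:58214777-58214976, plus strand) Ifi47 (chr11:49076387-49076586, plus strand) and Irf1 (chr11:53769814-53770013, plus strand).
Isg15: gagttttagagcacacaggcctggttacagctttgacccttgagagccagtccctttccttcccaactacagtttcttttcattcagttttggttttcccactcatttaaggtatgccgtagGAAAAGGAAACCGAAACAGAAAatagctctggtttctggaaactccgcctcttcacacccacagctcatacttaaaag
Ifit3: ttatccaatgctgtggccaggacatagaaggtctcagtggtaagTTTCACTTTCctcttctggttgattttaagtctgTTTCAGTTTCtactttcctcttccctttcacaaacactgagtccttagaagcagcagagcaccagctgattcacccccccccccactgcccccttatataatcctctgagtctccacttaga
Ifit3b: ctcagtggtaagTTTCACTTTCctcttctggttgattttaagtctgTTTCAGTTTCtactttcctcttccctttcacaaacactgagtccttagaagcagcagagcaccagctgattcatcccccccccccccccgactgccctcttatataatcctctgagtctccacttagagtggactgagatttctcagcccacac
Gbp7: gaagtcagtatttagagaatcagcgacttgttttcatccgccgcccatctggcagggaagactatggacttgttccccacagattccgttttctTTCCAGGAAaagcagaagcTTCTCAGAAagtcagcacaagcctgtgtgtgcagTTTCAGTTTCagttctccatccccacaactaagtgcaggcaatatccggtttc
Bst2: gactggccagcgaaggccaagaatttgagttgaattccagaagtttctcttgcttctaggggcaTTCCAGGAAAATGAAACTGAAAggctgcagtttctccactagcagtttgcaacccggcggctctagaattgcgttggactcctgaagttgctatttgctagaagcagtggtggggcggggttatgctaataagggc
Igtp: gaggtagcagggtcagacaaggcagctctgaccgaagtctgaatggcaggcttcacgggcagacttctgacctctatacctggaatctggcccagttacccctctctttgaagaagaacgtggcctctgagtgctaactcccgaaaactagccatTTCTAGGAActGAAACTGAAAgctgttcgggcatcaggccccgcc
Irgm2: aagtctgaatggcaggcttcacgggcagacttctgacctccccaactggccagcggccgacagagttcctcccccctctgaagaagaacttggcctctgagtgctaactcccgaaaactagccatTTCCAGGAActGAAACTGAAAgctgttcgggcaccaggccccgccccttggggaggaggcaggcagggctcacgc
Ifi47: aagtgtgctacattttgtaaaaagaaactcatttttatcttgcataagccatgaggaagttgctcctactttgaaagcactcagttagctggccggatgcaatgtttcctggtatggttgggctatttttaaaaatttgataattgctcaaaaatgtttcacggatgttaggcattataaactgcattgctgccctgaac
Irf1: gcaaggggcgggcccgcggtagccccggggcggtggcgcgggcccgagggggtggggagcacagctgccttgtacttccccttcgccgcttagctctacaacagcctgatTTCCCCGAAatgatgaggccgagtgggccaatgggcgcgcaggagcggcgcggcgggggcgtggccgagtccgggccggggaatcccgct
Isg15 has 3 overlapping ISRE matches, which begin 78, 72 and 66 bases before the start. Ifit3 and Ifit3b have the same pair of reverse-strand matches, 156 and 122 bases before the start in Ifit3 and 188 and 154 in Ifit3b. In Bst2, Igtp and Irgm2 a GAS match stands next to or overlaps an ISRE match, and in Gbp7 a pair of GAS matches precedes it. The Irf1 window holds 1 GAS match, 90 bases before the start, and no ISRE core. Since they were picked by these matches, the printed windows say nothing of how matches and falls go together: Ifi47, Oasl2, Ifih1 and Ifit2 also fell and hold no match in the 200 bases.

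Interferon response genes were mostly lower in KO than in WT cells. The list was chosen with earlier results of these data known, so the shares below describe it and are no independent test. Of the 49 genes, 42 (85.7%) were lower in KO at an adjusted p under 0.05, where 33.0% of all tested genes were, and 26 of these were lower by over 2-fold, where 9.38% of all tested genes were; none was higher by over 2-fold, where 8.56% were. The 2 that were higher were Ifi27 and Irf1, where 33.7% of all tested genes were higher. Ifitm1, Ifitm2, Xaf1, Irf8 and Irf9 were not called. The median log2 fold change (KO over WT) was -1.04 over the 49 genes and 0.02 over all genes tested. In 42 of the 49 every KO library was below every WT library (34.1% of all tested genes), in 2 every KO library was above (35.3%), and in the other 5 the groups overlapped. With each library left out in turn, 42 to 43 genes were lower. The authors' separate count tables for each library, whose values differ from the matrix gene by gene, did not give this result. Only 21 of the 49 genes could be tested there, and their median was -0.026, against 0.019 over all genes tested there. Of the 21, 10 were lower and 1 was higher, where 2745 and 2691 of all 9871 genes tested there were. Why the tables and the matrix differ was not tested, and all values here are from the matrix. The summed level of the 49 genes was 3665 to 3755 CPM over the WT libraries and 1938 to 2019.6 over the KO libraries, with no overlap. In bulk RNA, fewer cells that express these genes and less RNA of them per cell cannot be told apart.

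**Figure D1:**
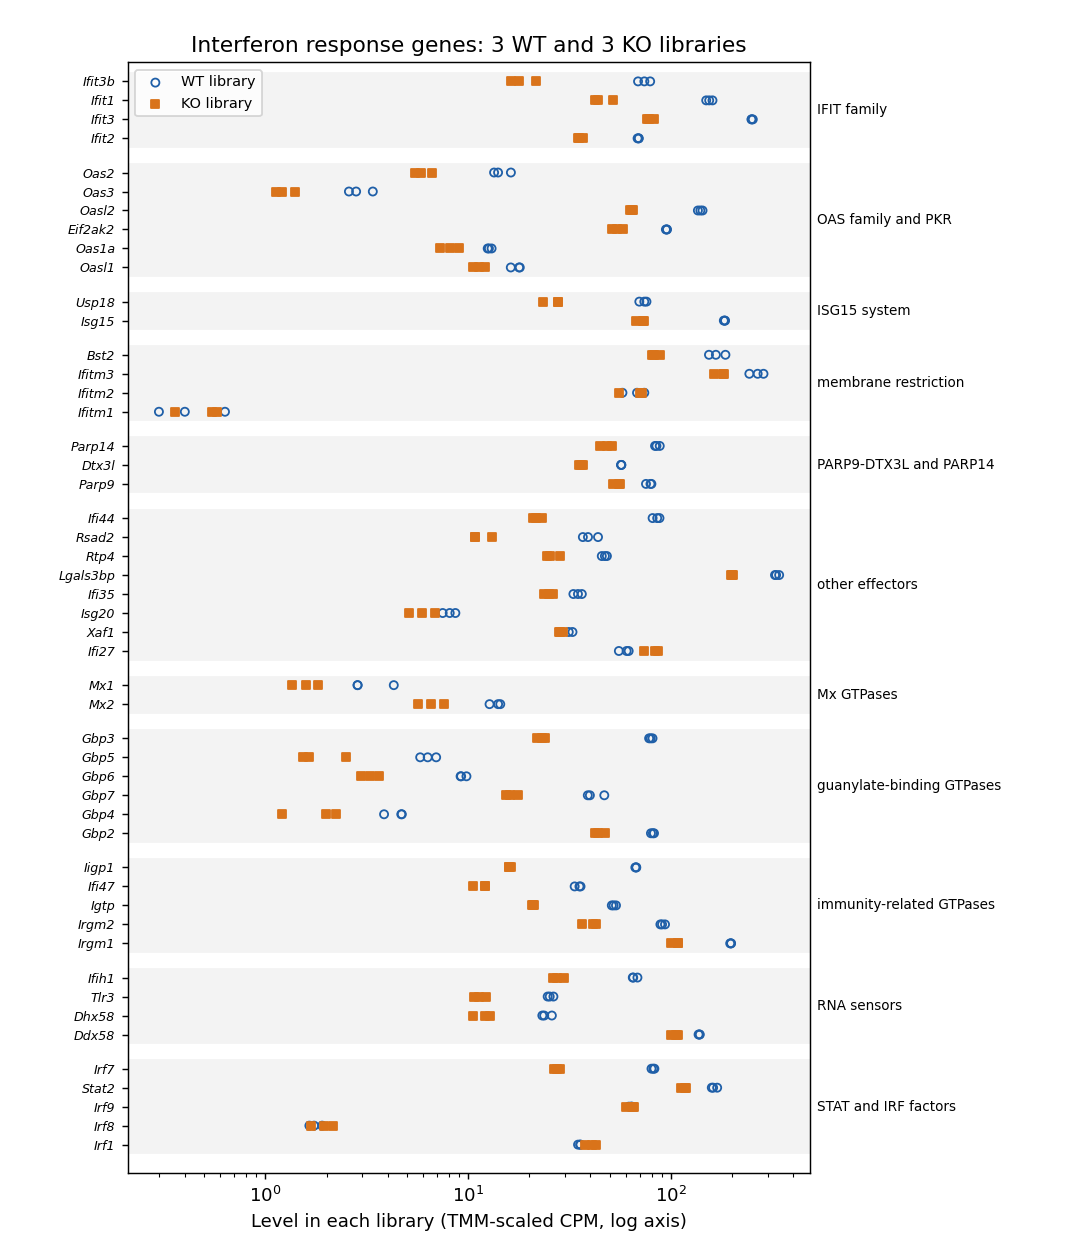
Level of each of the 49 interferon response genes in each library, in TMM-scaled CPM on a log axis; open circles are the 3 WT libraries and filled squares the 3 KO libraries, with genes grouped by role. KO squares lie to the left of WT circles for 42 genes, to the right for Ifi27 and Irf1, and overlap them for Ifitm1, Ifitm2, Xaf1, Irf8 and Irf9.

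The 4 IFIT genes, whose proteins bind foreign RNA and keep it from being translated, all fell (33.0% of all tested genes were lower). They lie side by side on chromosome 19. Ifit3b (ENSMUSG00000062488, mm10 chromosome 19, 34607970 to 34613401) stood at 78.8, 68.7 and 73.7 CPM in WT and at 17.8, 21.5 and 16.3 CPM in KO, with every KO library below every WT library. Its log2 change was -1.98 (SE 0.080, adjusted p 8.08e-16). Ifit1 (ENSMUSG00000034459, chromosome 19, 34640871 to 34650009) went from 154, 159.8 and 149 CPM in WT to 43.7, 51.8 and 42.3 in KO, a change of -1.74 (SE 0.060, adjusted p 1.46e-18). For Ifit3, which had the highest level per length of the family, the libraries held 253, 249.7 and 248.7 CPM in WT and 75.7, 82.5 and 78.0 in KO, a change of -1.67 (SE 0.045, adjusted p 5.88e-27). Ifit2 fell by less, from 69.0, 69.2 and 68.3 to 35.1, 36.8 and 34.7 CPM (-0.95, SE 0.057). Ifit3 and Ifit3b are near copies: 51.2% of the 50-base stretches in Ifit3 transcripts and 45% of those in Ifit3b also occur in transcripts of another gene, so reads of this pair can be split or lost and their separate values are uncertain.

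All 6 genes of the OAS family and PKR were lower in KO, where 33.0% of all tested genes were. The OAS enzymes make short oligoadenylates as a signal of foreign RNA, and PKR, encoded by Eif2ak2, is a kinase that stops translation when it binds double-stranded RNA. Oas2 stood at 14, 16.2 and 13.4 CPM in WT libraries and 6.66, 5.45 and 5.85 in KO libraries, and its log2 change was -1.28 (SE 0.11, adjusted p 3.89e-12). Oas3 was low in every library, at 3.38, 2.58 and 2.80 CPM in WT and 1.13, 1.39 and 1.21 in KO, and changed by -1.22 (SE 0.23, adjusted p 1.9e-05). The most abundant of the family per length was Oasl2, an OAS-like gene, at 143, 135 and 139 CPM in WT and 64.6, 64.1 and 62.3 in KO (-1.13, SE 0.047). The 3 other genes showed smaller differences: Eif2ak2 at -0.80, Oas1a at -0.65 and Oasl1 at -0.61. Of the 50-base stretches of Oas1a, 57.6% also occur in transcripts of another gene, mainly Oas1g, so its value is uncertain.

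Both genes of the ISG15 system fell, where 33.0% of all tested genes did. ISG15 is a ubiquitin-like protein that is attached to other proteins, and Usp18 removes it and also dampens signalling at the type I receptor. Isg15 (ENSMUSG00000035692, chromosome 4, 156199424 to 156200818), whose promoter with 3 overlapping ISRE matches is shown above, stood at 184, 182 and 184 CPM in WT and 67.4, 72.9 and 73.3 in KO. The WT libraries lay within a narrow range and all KO libraries were far below it; the change was -1.36 (SE 0.046, adjusted p 5.3e-24). Usp18 went from 73.7, 69.7 and 75.5 CPM to 23.3, 27.8 and 27.7 CPM, a log2 change of -1.48 (SE 0.065, adjusted p 1.28e-20).

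The membrane restriction factors divided. Bst2, or tetherin, which holds budding viruses at the cell surface, fell from 166, 154 and 185 CPM in WT to 88.5, 81.9 and 80.5 in KO, a change of -1.01 (SE 0.058, adjusted p 1.37e-12). Ifitm3, which keeps viral and cell membranes from fusing, fell from 267, 243 and 285 CPM to 162, 179.6 and 182 CPM, a change of -0.60 (SE 0.055, adjusted p 5.16e-09). Its neighbour Ifitm2 was not called: its libraries held 73.7, 67.9 and 57.5 CPM in WT and 55.4, 70.4 and 71.7 in KO, ranges that overlapped. The Ifitm2 log2 fold change was -0.0088 with a 95% interval of -0.39 to 0.37, and it turned positive with library size as the only scaling. Of the 50-base stretches of Ifitm2, 48.5% occur in other genes' transcripts, and 40.9% of its exonic bases overlap another annotated gene. Ifitm1 had 8 to 12 counts in each library (0.18, 95% interval -0.71 to 1.07), and a difference within that interval was not detectable at this depth.

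Parp9, Dtx3l and Parp14, neighbours on chromosome 16, all fell and none by over 2-fold, where 33.0% and 9.38% of all tested genes did. Parp9 and Dtx3l form a complex that couples ADP-ribosylation to ubiquitin transfer, and Parp14 is another ADP-ribosyltransferase. Parp14 stood at 83.3, 87.8 and 84.6 CPM in WT and 48.2, 50.8 and 44.5 in KO (-0.83, SE 0.055, adjusted p 1.98e-15). Dtx3l went from 56.7, 56.8 and 56.6 CPM to 35.7, 36.8 and 35.2 CPM (-0.66, SE 0.058), and Parp9 from 79.0, 75.1 and 79.9 to 55.2, 55.7 and 51.8 CPM (-0.52, SE 0.053). No KO library of these genes reached the lowest WT library. Parp9 shares 9.4% of its exonic bases with Dtx3l, which is on the other strand, and no source used here says whether counting used strand.

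Of the 8 other effectors, 6 fell, 1 rose and 1 was not called, where 33.0% of all tested genes were lower and 33.7% higher. Ifi44 (ENSMUSG00000028037, chromosome 3, 151730922 to 151749960), a cytoplasmic protein named for its induction by interferon, stood at 85.3, 87.6 and 81.0 CPM in WT and 20.9, 21.5 and 23.1 CPM in KO, a log2 change of -1.96 (SE 0.061, adjusted p 4.81e-25). Rsad2, the enzyme viperin, which makes a chain-terminating nucleotide that blocks viral RNA synthesis, went from 38.9, 36.7 and 43.6 CPM to 10.8, 10.8 and 13.1 CPM, a change of -1.79 (SE 0.083, adjusted p 1.98e-19). Both fell by over 3-fold and their groups did not overlap. The secreted glycoprotein gene Lgals3bp was the most abundant of the 8 per length and fell from 341, 325 and 329 CPM to 202, 197 and 199.996 CPM (-0.73, SE 0.041). Rtp4 (-0.85), Ifi35 (-0.47) and the exonuclease gene Isg20 (-0.44) also fell. Rtp4 and Ifi35 share 13.9% and 16.8% of their exonic bases with another annotated gene. The Isg20 call was lost with library size as the only scaling (adjusted p 0.0575; over all alternatives its adjusted p ran from 0.00106 to that value). Ifi27, a small membrane protein, moved the other way, from 61.7, 55.2 and 60.3 CPM in WT to 73.4, 83.1 and 85.9 CPM in KO, a log2 change of 0.45 (SE 0.058, adjusted p 4.5e-08), with every KO library above every WT library. Xaf1, which binds the apoptosis inhibitor XIAP, stood at 32.6, 28.5 and 31.3 CPM in WT and 29.2, 28.5 and 28.1 in KO (-0.11, adjusted p 0.159, 95% interval -0.25 to 0.030). Without WT replicate 2 it was called lower (-0.17, adjusted p 0.0404), and with library size as the only scaling its sign turned (0.06, adjusted p 0.422).

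**Figure D2:**
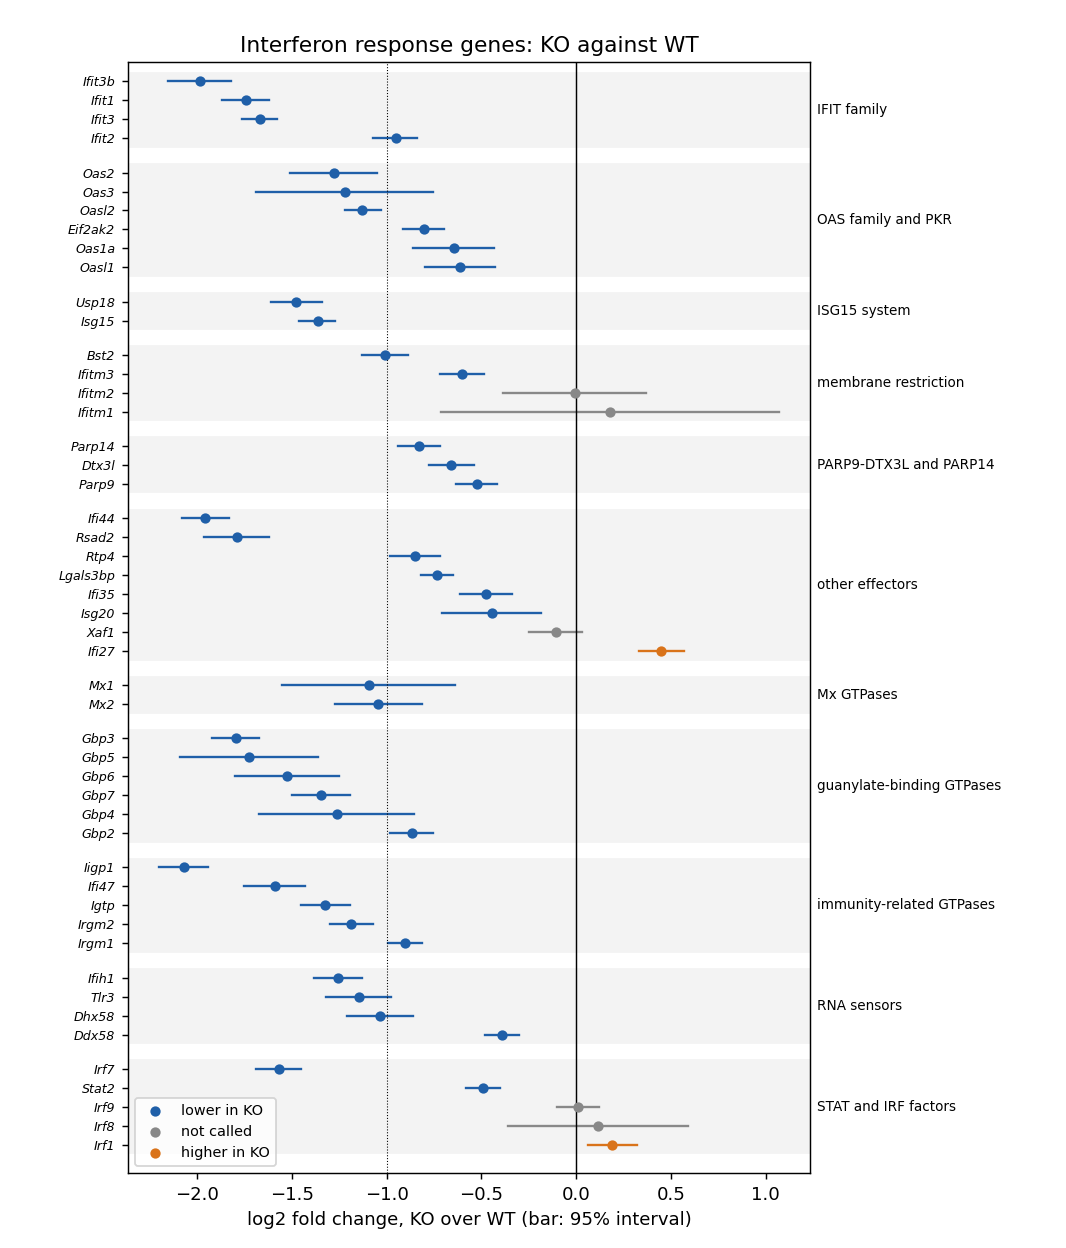
Log2 fold change of KO over WT for each of the 49 genes (point) with its 95% interval from edgeR (bar), grouped by role; the dotted line marks a 2-fold fall. All 13 GTPases and all 4 RNA sensors lie left of 0, and the STAT and IRF factors lie on both sides, from -1.57 for Irf7 to 0.19 for Irf1; the signs of Ifitm2, Xaf1 and Irf9 turn under another scaling.

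All 13 interferon-induced GTPases fell, 11 past 2-fold, where 33.0% and 9.38% of all tested genes did. Their median log2 fold change was -1.32, against 0.02 for all genes. The 13 genes fall into 3 families, whose proteins act against viruses or against pathogens in vacuoles. The Mx proteins, relatives of dynamin, are defective in many laboratory mouse strains, and the labels name no strain. Mx1 was low, at 2.85, 2.84 and 4.29 CPM in WT libraries and 1.81, 1.35 and 1.58 in KO libraries, and its change was -1.09 (SE 0.22, adjusted p 6.17e-05). Mx2 stood at 14, 14.4 and 12.7 CPM and 6.52, 7.57 and 5.64 CPM, a change of -1.04 (SE 0.11, adjusted p 4.72e-10). The Mx1 level of WT replicate 3 lay above those of the other WT libraries, and without that library its log2 fold change was -0.86 (adjusted p 0.00293).

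Guanylate-binding proteins coat pathogen vacuoles, and all 6 of their genes fell, where 33.0% of all tested genes did. Gbp3 (ENSMUSG00000028268, chromosome 3, 142560026 to 142573209) went from 79.3, 80.9 and 77.8 CPM in WT to 21.7, 23.8 and 23.0 CPM in KO, a log2 change of -1.79 (SE 0.060, adjusted p 3.53e-24). Gbp5 was low, at 6.94, 5.79 and 6.31 CPM in WT and 1.63, 2.51 and 1.53 in KO, and changed by -1.72 (SE 0.18, adjusted p 2.4e-10). Gbp2, with the highest level per length of the family, stood at 79.5, 81.2 and 82.3 CPM in WT and 42.3, 46.9 and 43.8 in KO and fell by the least (-0.87, SE 0.055). The others lay between, at -1.52 for Gbp6, -1.34 for Gbp7 and -1.26 for Gbp4. The family sits in a cluster on chromosome 3 (Gbp2, Gbp3, Gbp5 and Gbp7) and another on chromosome 5 (Gbp4 and Gbp6), and genes of both fell. Gbp6 shares 70.7% of its 50-base stretches with other genes' transcripts and 29% of its exonic bases with an overlapping annotated gene, so its value is uncertain; for Gbp7 these shares were 12.7% and 11.3%.

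The immunity-related GTPases, which in mice act against parasites in vacuoles, all fell, where 33.0% of all tested genes did. Iigp1 had the largest estimated fall of the 49 genes, although its 95% interval (-2.20 to -1.94) overlapped that of Ifit3b (-2.15 to -1.82), and without KO replicate 2 Ifit3b fell by more (-2.11 against -2.06). Iigp1 (ENSMUSG00000054072) stood at 67.3, 67.2 and 66.6 CPM in WT libraries and at 16.2, 15.8 and 15.9 CPM in KO libraries. Each group lay within a narrow range and the difference was 4.19-fold, a log2 change of -2.07 (SE 0.063, adjusted p 2.34e-25). Ifi47 went from 35.7, 33.4 and 35.3 CPM to 10.5, 12.1 and 12.1 CPM, a change of -1.59 (SE 0.079, adjusted p 3.68e-19). Irgm1, a regulatory member of the family that restrains the others, had its highest level per length and fell by the least, from 197, 195 and 197 CPM to 108, 99.9 and 108 CPM (-0.90, SE 0.045). Igtp (-1.32, SE 0.063) and Irgm2 (-1.19, SE 0.057), whose promoters with their adjoining GAS and ISRE letters are printed above, fell by similar amounts. Their annotations overlap on chromosome 11, and 11.8% of the 50-base stretches of Igtp occur in Irgm2 transcripts.

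The 4 sensors of viral RNA all fell, 3 of them by over 2-fold, where 33.0% and 9.38% of all tested genes did. Ifih1, or MDA5, which recognises long double-stranded RNA in the cytoplasm, stood at 64.7, 68.2 and 65.0 CPM in WT and 26.1, 27.2 and 29.5 in KO, a log2 change of -1.26 (SE 0.061, adjusted p 2.42e-19). Tlr3, the endosomal receptor for double-stranded RNA, went from 24.6, 26.3 and 25.2 CPM to 11.3, 12.2 and 10.7 CPM, a change of -1.15 (SE 0.084, adjusted p 2.17e-14). Dhx58, or LGP2, a relative of MDA5 that lacks its signalling domains, stood at 25.8, 23.2 and 23.7 CPM in WT and 10.6, 12.1 and 12.8 in KO (-1.04, SE 0.087). Ddx58, or RIG-I, which recognises RNA ends with a triphosphate, was the most abundant of the 4 per length and fell by the least, from 136, 138 and 137 CPM to 100.1, 108 and 106 CPM, a change of -0.39 (SE 0.045, adjusted p 2.38e-09). The KO libraries of Ddx58 still lay below every WT library.

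The STAT and IRF factors that drive the programme did not move as 1 group: 2 fell, 1 rose and 2 were not called. Of all tested genes, 33.0% were lower and 33.7% higher, so the counts alone do not set the factors apart. Irf7, which is induced by interferon and drives further interferon production, fell from 82.6, 81.7 and 80.0 CPM in WT to 26.4, 28.5 and 27.5 CPM in KO, a log2 change of -1.57 (SE 0.058, adjusted p 6.18e-23), and its groups did not overlap. Stat2, the most abundant of the 5 per length, fell from 169, 159 and 161 CPM to 118, 117 and 112 CPM, a change of -0.49 (SE 0.044, adjusted p 6.67e-12). Its partner Irf9, which supplies the DNA contact of the ISRE-binding complex, stood at 63.5, 64.0 and 61.8 CPM in WT and 65.4, 65.1 and 59.7 CPM in KO. The Irf9 change was 0.0086 with a 95% interval of -0.10 to 0.12, which does not reach the fall of Stat2; its sign turned with median-of-ratios factors, and with library size as the only scaling it was called higher (0.18, adjusted p 0.00375). Irf1, a factor that interferon gamma induces strongly through the GAS of its own promoter, rose from 35.7, 35.6 and 34.7 CPM to 37.7, 42.4 and 40.8 CPM, a change of 0.19 (SE 0.063, adjusted p 0.00769). The rise was small, and without KO replicate 2 the call was lost (0.15, adjusted p 0.0501; over all alternatives the adjusted p ran from 5.09e-06 to that value). Irf8, a factor of myeloid cells, was low at 1.65, 1.74 and 1.90 CPM in WT and 1.95, 1.67 and 2.16 in KO (0.11, adjusted p 0.681, 95% interval -0.36 to 0.59).

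Levels were compared between genes as CPM per kilobase of annotated exon, given as mean ± SD over 3 libraries. In WT libraries, Ifitm3 was the highest of the 49 genes at 391 ± 31.3, followed by Isg15 at 242 ± 1.75, Bst2 at 186 ± 17.6, Ifit3 at 143 ± 1.14, Lgals3bp at 116 ± 2.85 and Ifitm2 at 101 ± 12.5. In KO libraries, Ifitm3 stayed highest at 258 ± 16.1, and Ifitm2 at 101 ± 13.8, Isg15 at 94.2 ± 4.33 and Bst2 at 92.6 ± 4.68 came next and lay within their spread of each other. Ifit3 stood at 45.1 ± 1.97 in KO and Lgals3bp at 70.1 ± 1.03, so these neighbours changed places. Irf8 (0.250 ± 0.0184 in WT), Ifitm1 (0.406 ± 0.156) and Oas3 (0.413 ± 0.0587) were the lowest in WT, the last 2 within their spread of each other. Iigp1, which fell 4.19-fold, stood at 11.5 ± 0.0663 per kilobase in WT, and the top-ranked Ifitm3 fell 1.52-fold.

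Some of these genes overlap or resemble others, which can move counts between them. Of the 49, 31 had under 5% of their exonic bases and under 5% of their 50-base stretches in common with any other annotated gene. Of these 31, 26 were lower in KO, 2 were higher and 3 were not called, and the median log2 fold change was -1.01. Of all tested genes, 33.0% were lower and 33.7% higher. The median over all 49 genes was -1.04.

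Of the other genes of the pathway, 82 were listed in 6 groups, and 69 were tested. Of these, 40 were lower and 14 were higher in KO, where 33.0% and 33.7% of all tested genes were, with a median log2 fold change of -0.23. With library size as the only scaling, 31 were lower and 18 higher, where 3703 and 7224 of all 15518 tested genes were. Of 40 further interferon-stimulated genes, 29 fell and 3 rose, leaving 8 with no call. By over 2-fold, 19 fell, where 9.38% of all tested genes did, and the median was -0.71. The 3 falls with the smallest p were those of the GTPase gene Tgtp1, from 28.3, 25.5 and 25.0 CPM to 4.48, 5.81 and 5.69 CPM (-2.30), Trim30a (-1.46) and Slfn5 (-1.20). Among those that rose were the lysosomal reductase gene Ifi30 (0.73, SE 0.066) and the phospholipid scramblase gene Plscr1 (0.32).

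Upstream parts of the pathway differed in both directions. Median log2 fold changes were 0.21 for receptors, -0.16 for JAK-STAT signalling and 0.063 for sensing adaptors and kinases. Single genes differed by more, such as Zbp1 (-2.28) and Tlr7 (1.12), described below. The 10 listed ligand genes, of types I, II and III, have no row in the matrix used and were not analysed here. Both chains of the type I receptor rose, Ifnar1 from 73.4, 73.3 and 72.5 CPM to 86.4, 81.7 and 85.2 CPM (0.21, SE 0.049, adjusted p 0.000408) and Ifnar2 from 29.6, 28.7 and 29.4 to 37.2, 34.8 and 37.7 CPM (0.32, SE 0.064). Both chains of the interferon gamma receptor fell, Ifngr2 from 104, 102 and 102 CPM to 75.8, 67.8 and 71.5 CPM (-0.52, SE 0.050) and Ifngr1 by less (-0.17, adjusted p 0.0164), although Ifngr1 was not called with library size as the only scaling (0.0052), nor without WT replicate 1 (adjusted p 0.066), KO replicate 1 (0.0678) or KO replicate 3 (0.0635). Il10rb, a chain shared with the type III receptor, rose (0.31), but was not called when WT replicate 3 was left out (0.19, adjusted p 0.0854). Ifnar2 and Il10rb share 9.46% and 14.9% of their exonic bases with another annotated gene.

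Among the kinases and factors of JAK-STAT signalling, differences ran in both directions. Jak1 rose from 202, 202 and 205 CPM to 265, 264 and 252 CPM (0.36, SE 0.042). Jak2 fell slightly (-0.16, adjusted p 0.0193), a call that was lost without KO replicate 3 (-0.12, adjusted p 0.101) and, with its sign turned, with library size as the only scaling (0.013). Tyk2 and Irf2 were not called in KO against WT (-0.10, adjusted p 0.127, and -0.17, adjusted p 0.0543). Irf2 was called lower with median-of-ratios factors (adjusted p 0.0397), without the filter on low counts (0.0432) and without WT replicate 2 (0.0329), and both genes changed sign with library size as the only scaling (0.066 and 0.0029). Of 12 sensing adaptors and kinases, 5 were lower and 6 were higher, where 33.0% and 33.7% of all tested genes were. The nucleic acid sensor Zbp1, itself induced by interferon, fell from 33.9, 37.0 and 35.5 CPM to 6.93, 7.37 and 7.59 CPM (-2.28, SE 0.084), and Trim25 (-0.42) and Tbk1 (-0.30) fell by less. Tbk1 was not called with library size as the only scaling (-0.13, adjusted p 0.0518). Under that scaling the lower calls of Mavs (-0.013, adjusted p 0.873) and Irf3 (0.021, adjusted p 0.772) were lost too. Mavs, Irf3, Tmem173 and Irf5 also lost their calls in some fits with a library left out, so the split is not firm. Tlr7 (1.12), the DNA sensor gene Cgas (0.67) and Ikbke (0.30) rose, with Tlr7 at no more than 2.53 CPM in any library.

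Among negative regulators, the calls made with TMM held with library size as the only scaling, and that scaling added others. Of 7 tested, 3 were called with TMM, where 66.7% of all tested genes were. The phosphatase gene Ptpn2 (-0.37, SE 0.070) and the nucleotide hydrolase gene Samhd1 (-0.37, SE 0.060) fell. Ptpn6, a phosphatase of blood cells, rose from 2.85, 2.37 and 1.68 CPM to 4.39, 4.90 and 4.37 CPM (1.004, SE 0.19). Socs1 and Socs3, feedback inhibitors that interferon and cytokines induce, were not called: Socs1 stood at 3.87, 3.95 and 3.06 CPM in WT and 3.40, 3.98 and 3.37 in KO, and Socs3 at 34, 34 and 33.7 CPM and 33.4, 32.4 and 34.5 CPM. Pias1 and Adar were not called either. With library size as the only scaling, Socs3 (0.15, adjusted p 0.0326), Pias1 (0.17, adjusted p 0.0153) and Adar (0.13, adjusted p 0.0377) were called higher.

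**Figure D3:**
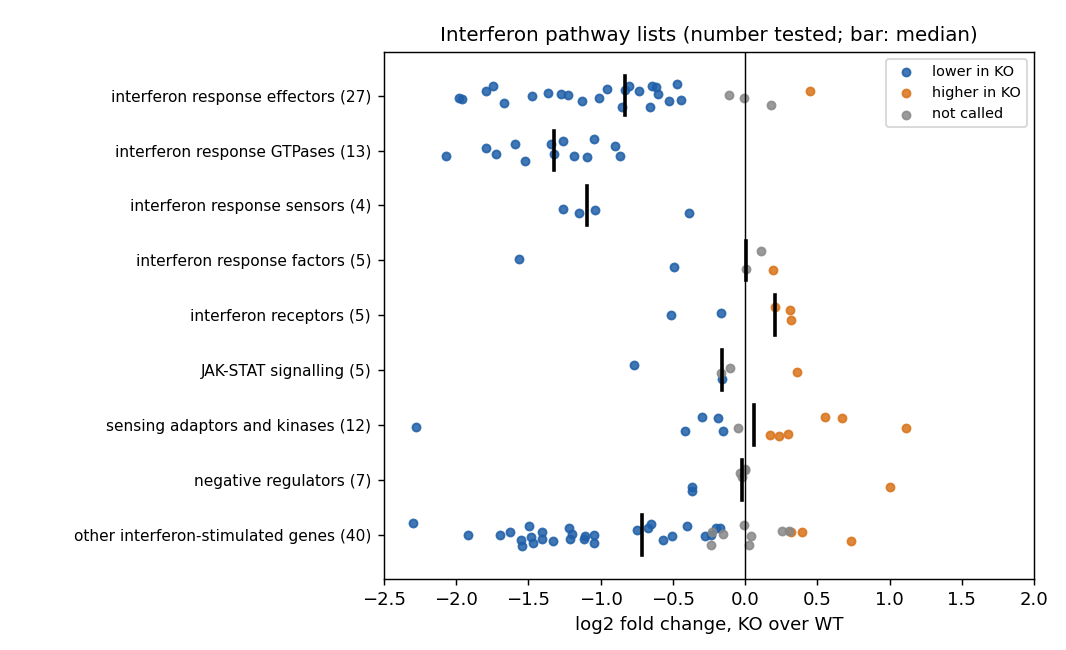
Log2 fold change of KO over WT for every tested gene of the 4 classes of interferon response genes and of 5 further pathway lists; each point is a gene, coloured by its call, and the bar is the median of the list. Effectors, GTPases, sensors and other interferon-stimulated genes lie mostly left of 0, whereas receptors, adaptors and kinases lie on both sides; small differences such as those of Ifngr1, Jak2 and Socs3 turn sign with library size as the only scaling.

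Markers of other cell types moved with genotype in the same libraries. The counts of calls below stand beside 33.0% of all tested genes lower and 33.7% higher. The summed level of 10 endothelial markers was 336 to 343 CPM in WT and 83.2 to 88.6 in KO, and all 10 were lower. That of 12 macrophage and leukocyte markers was 110.4 to 122 CPM in WT and 361 to 373 in KO, with 10 of 12 higher and the others not called. That of 6 Schwann cell markers was 201 to 209 and 742 to 744 CPM, with 5 of 6 higher. That of 6 fibro-adipogenic markers was 303 to 312 and 246 to 258 CPM, with 2 of 5 tested lower and 2 higher. The lower fibro-adipogenic sum rests mainly on Dcn (mean 216 CPM in WT and 143 in KO). Ly6a was also lower, and Pdgfra (69.5 and 90.5 CPM) and Dpp4 were higher. Of the 6 markers of T, B and plasmacytoid cells, 3 were in the matrix, at a sum of 0.336 to 0.684 CPM in WT and 0.0398 to 0.272 in KO libraries, and the T cell gene Cd3e was at 0 in all 3 KO libraries. The differentiation genes of muscle, all 8 lower, and mitochondrial transcripts (42080.5 to 44487 CPM in WT and 19521 to 21728 in KO) fell beside the interferon response genes. Satellite cell markers did not move as a set: of 5, Itga7 (-1.87) and Cdh15 (-2.005) fell, Pax7 (0.53) rose, and Myf5 and Vcam1 were not called, so the lower sum of this list rests on Itga7 and Cdh15. The part of these differences in the fall of the interferon response genes was not tested.

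**Figure D4:**
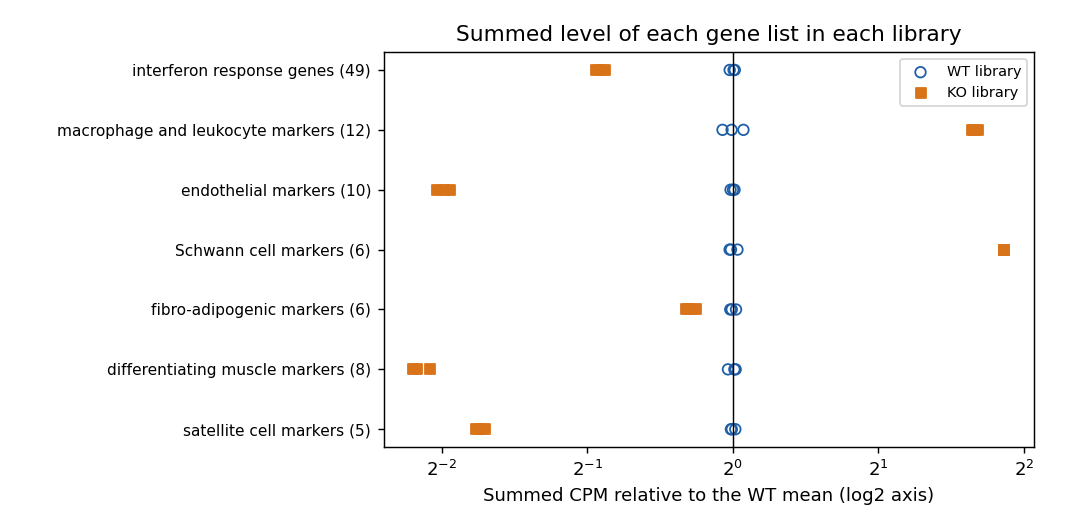
Summed CPM of the 49 interferon response genes and of 6 lists of cell type markers in each library, relative to the mean of the 3 WT libraries on a log2 axis; open circles are WT and filled squares KO libraries, and the number of genes is in parentheses. The interferon response genes and the endothelial, fibro-adipogenic, muscle differentiation and satellite cell sums lie lower in every KO library than in any WT library. Macrophage and Schwann cell sums lie higher. The lower satellite cell sum rests on Itga7 and Cdh15, and the lower fibro-adipogenic sum mainly on Dcn.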

How the data were processed

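The 49 genes and the lists of other pathway genes and cell type markers were chosen with earlier results of these data known. The authors deposited a matrix of raw counts per gene for 6 libraries, and a count table for each library. Reads were aligned to mm10 with HISAT2 2.2.1 and counted with featureCounts 2.0.1, per the submitters' processing notes; the use of strand and of multiply mapped reads is not stated in those notes. The matrix was used throughout. In the tables of each library, only 1 of the 49 genes (Ddx58) had a mean count 0.8 to 1.25 times that in the matrix. This mismatch does not show which source is right, and that was not tested.

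Of 21666 identifiers, 21632 matched GENCODE M21. Genes were filtered with filterByExpr (minimum count 10), scaled by TMM and tested with edgeR 4.0.16 (R 4.3.3), by the robust quasi-likelihood F-test on genotype, with Benjamini-Hochberg adjustment over 15518 genes and calls at an adjusted p under 0.05. CPM were computed with the TMM factors. Standard errors were taken from F as the size of the log2 fold change over its root. The fit was also run on simulated counts with known fold changes. Few genes were changed there, so that run does not test the scaling or the calls where most genes are called. Between 17919826 and 28430678 counts per library set the precision; low genes such as Ifitm1, Irf8 and Oas3 have wide intervals. In each role group the genes named with full values were the 2 called with the largest change, the highest per length, any called against the group and all not called; lists of up to 10 tested pathway genes are named by their calls and longer lists by the 3 smallest p in each direction; some genes these rules select are not reported here. The subset with under 5% shared sequence and the sex-linked genes were added after values were seen. Alternatives were library size or median-of-ratios factors, no filter, DESeq2 1.42.0, limma 3.58.1 with voom, each library left out, a replicate block and the tables of each library.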

Additional observations from a re-analysis of the deposited data

How the results depend on the processing

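Of 588 comparisons of a gene's result under an alternative with its reported result, 573 kept direction and call, and 43 of the 49 genes did so under every alternative on the matrix. With library size as the only scaling, 41 genes were lower and 3 higher, with a median of -0.86. Of all 15518 genes tested, 3703 were lower and 7224 higher under that scaling, with a median of 0.19. There, Ifitm2 (0.16) and Xaf1 (0.062) changed sign, Isg20 (-0.27, adjusted p 0.0575) was not called and Irf9 (0.18, adjusted p 0.00375) was called. Irf9, near 0, changed sign with median-of-ratios factors (-0.0030), without the filter (-0.010), with DESeq2 (-0.0031) and without WT replicate 3, KO replicate 1 or KO replicate 2; over all libraries left out in turn it ran from -0.020 to 0.046. Ifitm2 changed sign without WT replicate 1 or KO replicate 1, with a range of -0.12 to 0.100, and Ifitm1 without WT replicate 3, with a range of -0.078 to 0.47. With each library left out in turn, the median ran from -1.08 to -0.97, 42 to 43 genes were lower and 1 to 2 higher. The tables of each library, which disagree with the matrix gene by gene, gave 10 lower and 1 higher of 21 genes tested there, a median of -0.026, and 2745 lower and 2691 higher of 9871 genes in all; the cause was not tested. A replicate block gave 42 lower and 2 higher. Same-numbered libraries did not deviate together (correlations of -0.025 to -0.00091), so the numbers are not taken to pair them.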
